A study of Mus musculus with 7 samples.

Results

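The genes described here encode collagen chains and the matrix and surface proteins by which fibroblasts are usually recognized, read out in macrophages sorted from injured peripheral nerve. They were chosen by name and by no threshold on their values, but with earlier results of these data known. The 44 collagens are all genes of the table whose symbol has the form Col, number, a, number, and the other 10 are Dcn, Lum, Pdgfra, Thy1, Fbln1, Dpt, Sparc, Fn1, Postn and Bgn. Together they make 54 of the 23361 genes measured. All libraries came from BALB/cJ mice, a wild-type inbred strain, whose left sciatic nerve had been cut and repaired within an inert conduit. The age of these mice is not given in the sources used here. Tissue that had grown through the conduit was digested with collagenase type I and hyaluronidase, and macrophages were sorted as Lin-F4/80+CD14+CD11b+CD16/32+ cells. The lineage antibodies that removed other cells included Thy1.2, the product of the member Thy1, as a fibroblast marker, and CD31, the product of Pecam1, as an endothelial marker. Macrophages were taken at day 5 (3 libraries), day 14 (2 libraries) and day 28 (2 libraries) after the repair, and the design names the libraries of a day as biological replicates. Values per library are listed below in the order of their replicate numbers. Whether a library holds 1 mouse or a pool is not given. There was no uninjured nerve among these libraries, so every level below is that of RNA from cells sorted from a healing nerve.

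Collagen chains fold into a triple helix, in which a glycine must return at a fixed interval in each chain. The fibrillar collagens of types I, III and V give connective tissue its strength, types IV, XV and XVIII belong to basement membranes, and type VI forms beaded filaments around cells. In a cut nerve, fibroblasts of the epineurium and endoneurium lay down this matrix, and macrophages take part in its deposition and removal. Fibronectin differs from the rest in that many cells make it, macrophages among them.

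The property that sets the collagen members apart from the 10 others can be read in their coding sequence. In GENCODE coding sequences on GRCm38, all 44 collagens held a stretch of at least 10 consecutive Gly-X-Y units, that is, a glycine codon (GGN) followed by codons for any residues. No such stretch was found in the 10 listed members, and 50 of 19235 other coding genes had one (0.26%). Of the collagens, 18 of 44 had at least 5 coding exons of exactly 54 bases, which is the length of an exon holding 6 such units, and none of the 19235 other genes did. The longest uninterrupted run counted 338 units in Col1a1, 339 in Col1a2, 344 in Col3a1, 339 in Col5a2 and 216 in Col24a1. The first coding exon of that length made up of such units is shown for 5 members that the results below turn on, with each glycine codon in capitals. Col1a1 is exon 8 of 51 at chr11:94939904-94939957, plus strand. Col1a2 is exon 8 of 52 at chr6:4515481-4515534, plus strand. Col3a1 is exon 6 of 51 at chr1:45325360-45325413, plus strand. Col5a2 is exon 6 of 54 at chr1:45434892-45434945, minus strand. Col24a1 is exon 4 of 60 at chr3:145320661-145320714, plus strand.
Col1a1: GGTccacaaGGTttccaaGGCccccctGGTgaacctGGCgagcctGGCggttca
Col1a2: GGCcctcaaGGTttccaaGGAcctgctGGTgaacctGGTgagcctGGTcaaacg
Col3a1: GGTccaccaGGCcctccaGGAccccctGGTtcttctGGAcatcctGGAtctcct
Col5a2: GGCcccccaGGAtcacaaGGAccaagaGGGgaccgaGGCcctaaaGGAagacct
Col24a1: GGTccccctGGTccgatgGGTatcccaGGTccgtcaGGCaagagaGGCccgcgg

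The 200 bases before the start of transcription are shown for Col3a1 and Col24a1, since these 2 members followed different courses over the libraries. RefSeq promoters on GRCm38.p6 were matched to 41 of the 54 members. The Col3a1 stretch lies at chr1:45311338-45311537 and that of Col24a1 at chr3:145292272-145292471, both on the plus strand. Capitals mark TATAAA, searched on both strands and present in 5 of the 46 promoters of the matched members and in 9.96% of all 32851 promoters. A match describes letters in a window and no binding, and these letters are not in the Col24a1 window. In the Col3a1 window they lie nearer the upstream end than the start of transcription. Whether they bear on the courses of these 2 members was not tested.
Col3a1: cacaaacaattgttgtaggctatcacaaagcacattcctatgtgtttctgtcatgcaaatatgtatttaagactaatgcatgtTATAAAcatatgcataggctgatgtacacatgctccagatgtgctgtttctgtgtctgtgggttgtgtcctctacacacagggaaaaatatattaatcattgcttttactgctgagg
Col24a1: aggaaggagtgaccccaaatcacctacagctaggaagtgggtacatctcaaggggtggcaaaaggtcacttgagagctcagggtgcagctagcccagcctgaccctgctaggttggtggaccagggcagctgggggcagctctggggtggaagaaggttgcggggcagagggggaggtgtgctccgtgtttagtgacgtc

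Libraries held 18027190 to 35247116 fragments assigned to genes, and levels are given as FPKM, which relate the fragments of a gene to its transcript length and to the library size. A library in which a gene had at most 3 fragments was treated as at the floor of detection, which covers counting error only. The sorted cells carried macrophage genes at a high level, with a summed FPKM over 12 macrophage markers of 19178 to 25254. Against this, the members other than Fn1 summed to between 54.6 and 348 FPKM. Of the members, 31 were above the floor in every library and 11 in none. Col9a1, a chain of a cartilage collagen, had no fragment at all. The expression filter kept 37 members for testing, none of them through libraries of a single time point, and the 17 left out reached at most 11 fragments in any library. Here and below, a mean level is that of the libraries of a day, in the day where it is highest. A mean of at least 1 FPKM was reached by 25 members and a mean of at least 5 FPKM by 8 members, namely Fn1, Col1a1, Col3a1, Col1a2, Sparc, Bgn, Dcn and Postn.

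Of the 25 members with a mean of at least 1 FPKM, 19 had their highest level in day 14 replicate 1, and the 2 libraries of day 14 differed from each other. Between days 5 and 14, 7 of the 37 tested members rose and 0 fell (adjusted p under 0.05 in edgeR's quasi-likelihood F test, adjusted by Benjamini-Hochberg), whereas 4.78% of all 12858 tested genes were called, 2.84% upwards and 1.94% downwards. The members that rose were Postn, Col24a1, Col6a1, Col1a2, Sparc, Bgn and Col14a1. At an unadjusted p under 0.05, 24 of 37 members stood out, against 24% of all genes. The median log2 fold change was 1.38 over the tested members and 0.03 over all genes tested. A positive value was found in 31 of 37 members and in 6803 of the 12858 genes. Both libraries of day 14 lay above all 3 of day 5 in 19 of 37 members, compared with 21.9% of all genes. The count of called members depended on single libraries. It was 0 without day 5 replicate 2 (0.83% of all genes called) or without day 5 replicate 3 (0.407%), and 3 of 37 without day 5 replicate 1 (0.493%). Without day 14 replicate 1 it was 4 of 39 members, below the 13% of all genes called in that fit, and without day 14 replicate 2 it was 10 of 39 members, against 2.13% of all genes. It was 2 without either day 28 library (2.7% and 2.41% of all genes). In these bulk samples, fewer cells of a type and less RNA per cell cannot be told apart. Markers of fibroblasts that are not members moved with this result. Their sum over 27 genes was 15.5 to 21.5 FPKM in the day 5 libraries, 51.0 and 33.1 FPKM at day 14, and 31.0 and 33.2 FPKM at day 28. Their part in the result was not tested.

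Between days 14 and 28, 0 of 37 members passed the threshold in edgeR's test, where 0.0622% of all genes did. DESeq2, run without the expression filter, called 3 of the 53 members with any fragment (Col18a1, Col5a2 and Dcn, all lower at day 28). It called 1.87% of all genes with any fragment. Both shares count genes that DESeq2 left without an adjusted p, so they are not on the same base as those of edgeR. Limma on log2 FPKM values called 0 members and 0 genes. In edgeR, 13 of 37 members had an unadjusted p under 0.05, compared with 12.2% of all genes. The median log2 fold change of the tested members was -1.01, against 0.01 over all genes tested. In 24 of 37 members both libraries of day 28 lay below both of day 14, as in 19.7% of all genes. The count rose to 13 when day 14 replicate 2 was left out, which leaves the high library as the only one of its day and in which 4.7% of all genes were called, and stayed at 0 without any of the 6 others.

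Between days 5 and 28, 6 of 37 members were called, which is 16.2% and near the 15.2% of all genes. Fn1, Postn, Col14a1 and Col24a1 rose, as 7.74% of all genes did, and Col18a1 and Col9a3 fell, as did 7.51%. The median log2 fold change was 0.20 over the tested members and 0.03 over all genes tested. The count was 3 without day 5 replicate 3 (7.57% of all genes called), 2 without day 28 replicate 1 (3.4%) and 1 without day 28 replicate 2 (7.58%). Col24a1 was called in all 7 fits that left out a library. The comparisons of days 14 and 28 with day 5 share the day 5 libraries, so their values are set side by side only. When day 14 was set against the mean of the other 2 days, 0 members passed in edgeR's test (0.0156% of all genes). In DESeq2 5 of the 53 members with any fragment passed (1.06% of genes with any fragment, including those without an adjusted p). In edgeR 21 of 37 had an unadjusted p under 0.05 (12.6% of all genes). Without day 14 replicate 1 the number passing was 1 (2.05% of all genes), and without day 14 replicate 2 it was 13 (1.54% of all genes).

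**Figure D1:**
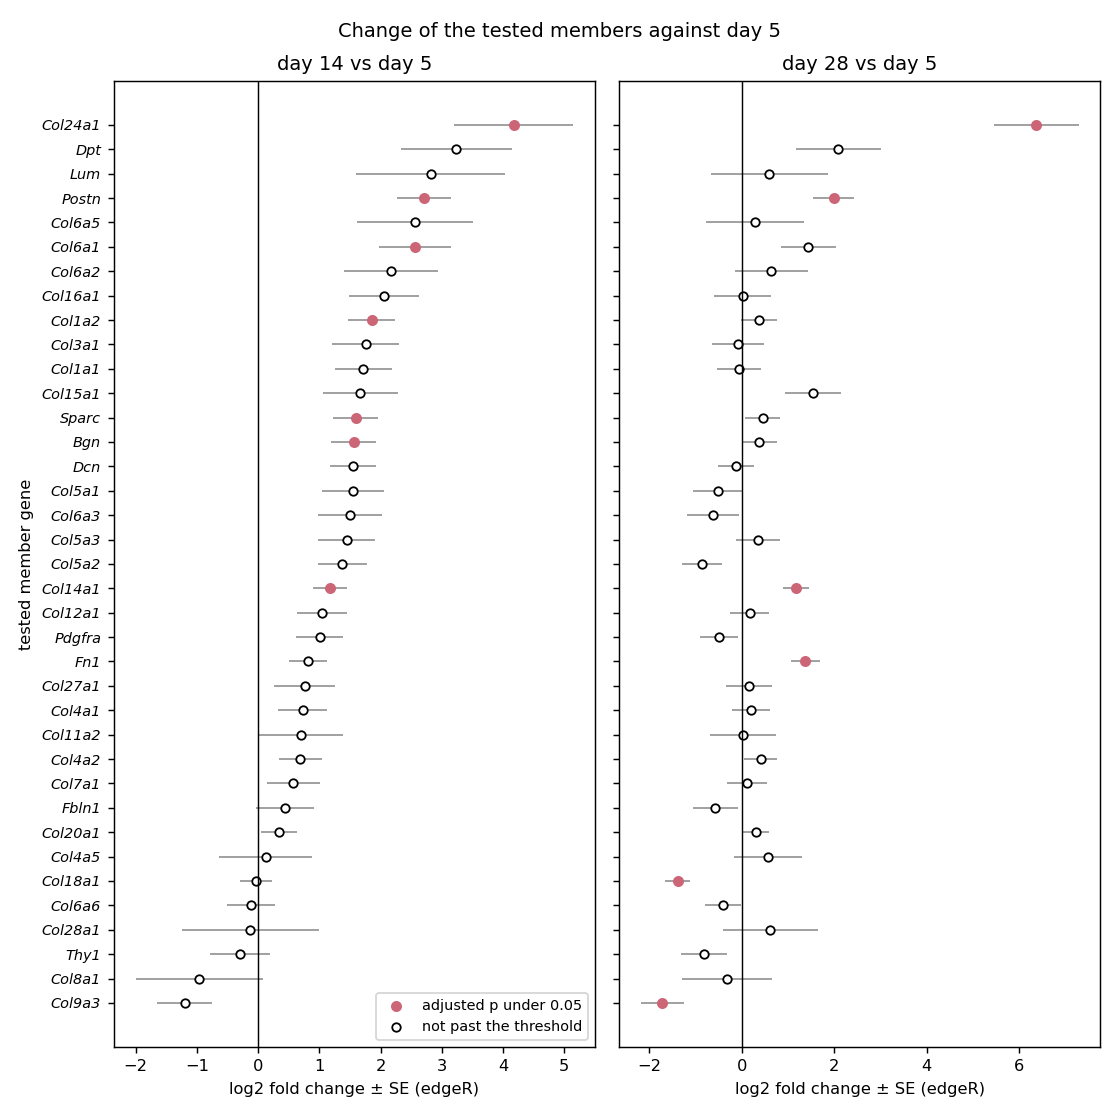
Log2 fold change and SE of the 37 tested members from edgeR, for day 14 vs day 5 on the left and day 28 vs day 5 on the right, with members ordered by the left panel. Filled points passed an adjusted p under 0.05: 7 members, all to the right of 0, at day 14, and 4 higher and 2 lower at day 28. Both panels use the same 3 day 5 libraries.

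The chains of types I and III, the main fibrillar collagens, were the most abundant collagens in every library. Col1a1 (chromosome 11, 94936224 to 94953042, plus strand) had 26.2, 13.3 and 11.7 FPKM at day 5, 82.4 and 29.9 FPKM at day 14, and 10.4 and 22.4 FPKM at day 28. Col1a2 (chromosome 6, 4504814 to 4541544, plus strand), whose product joins that of Col1a1 in type I collagen, was at 13.2, 8.09 and 6.30 FPKM, then 48.1 and 18.4 FPKM, then 9.996 and 13.5 FPKM. Col3a1 (chromosome 1, 45311538 to 45349706, plus strand) had 27.6, 10.5 and 7.32 FPKM, then 76.1 and 25.98 FPKM, then 11.4 and 17.0 FPKM. In all 3 genes day 14 replicate 1 was far above the rest and day 5 replicate 1 was the highest of its day. The libraries of days 5 and 14 did not overlap for Col1a1 and Col1a2, whereas for Col3a1 day 5 replicate 1 exceeded day 14 replicate 2. Col1a2 rose by day 14 (log2 fold change 1.86, SE 0.39, adjusted p = 0.035). This call was lost whenever a library of day 5 or day 28 was left out, and was kept without either library of day 14. Neither Col1a1 (log2 fold change 1.72, SE 0.47, adjusted p = 0.0676) nor Col3a1 (1.76, SE 0.55, adjusted p = 0.0924) passed. From day 5 to day 28 the log2 fold changes were -0.05 for Col1a1 (SE 0.48, adjusted p = 0.953), 0.36 for Col1a2 (SE 0.39, adjusted p = 0.566) and -0.09 for Col3a1 (SE 0.56, adjusted p = 0.936).

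The proportions among these chains moved less than their levels. The ratio of Col1a1 to Col1a2 FPKM was 1.04 in day 28 replicate 1 and 1.62 to 1.99 in every other library. That of Col3a1 to Col1a1 was 0.627 to 1.10. The 3 genes made up 61.5% to 80.0% of the summed FPKM of all collagens, with the lowest share in day 28 replicate 1 and the highest in day 14 replicate 1. The sum over the 44 collagens ran from 39.6 to 94.4 FPKM in the day 5 libraries, was 258 and 102 FPKM at day 14, and 51.8 and 77.4 FPKM at day 28.

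**Figure D2:**
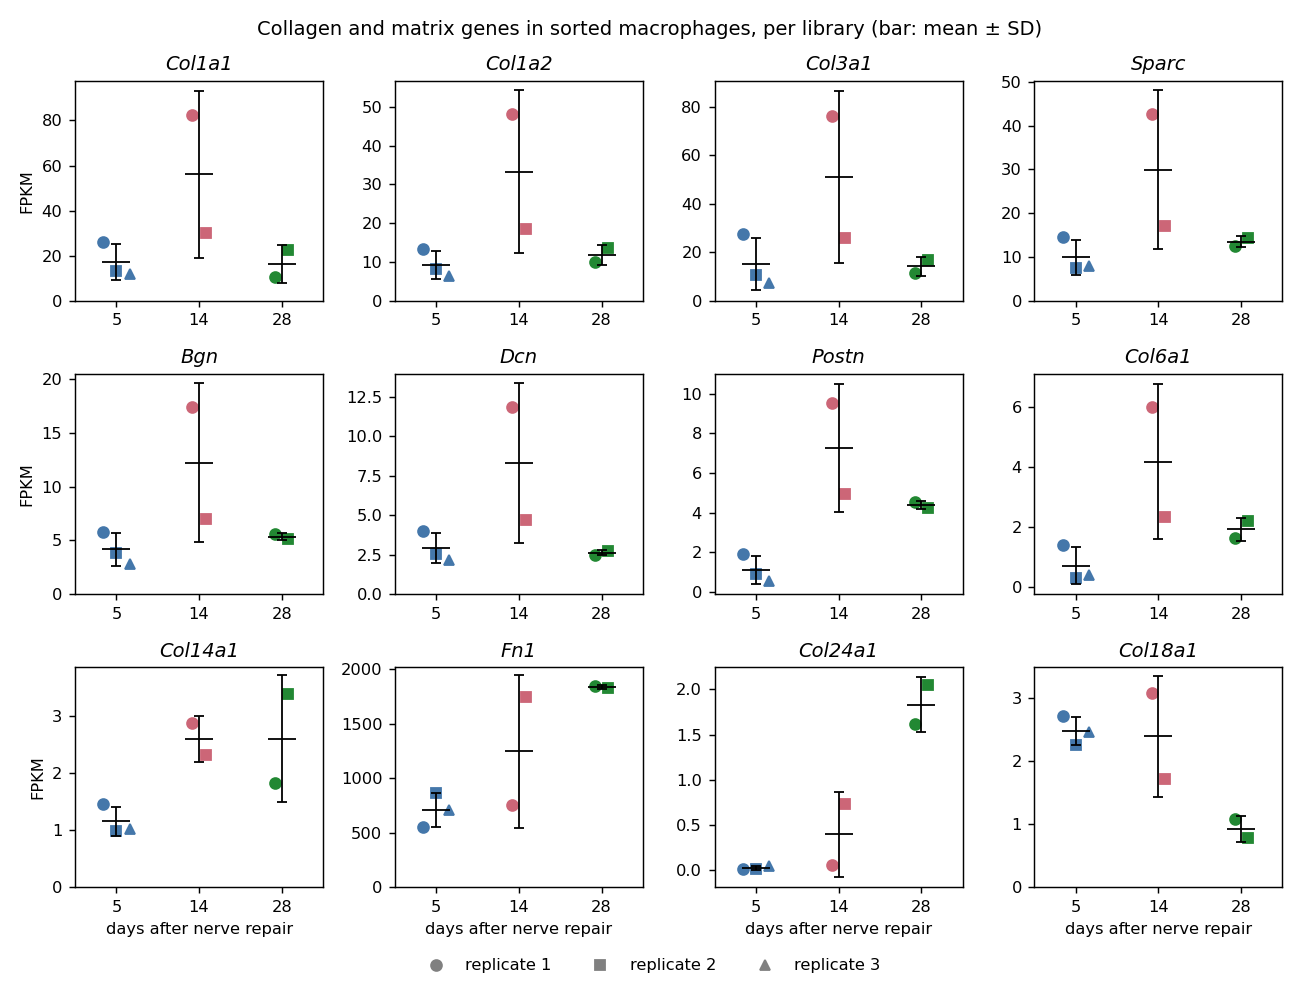
FPKM in each library for 12 members against days after nerve repair, with a panel per gene and its own axis. Symbols are replicates, and bars show the mean and SD of 3, 2 and 2 libraries. Day 14 replicate 1 is the highest library for Col1a1 (82.4 FPKM), Col3a1 (76.1 FPKM) and Sparc (42.8 FPKM), while Fn1 and Col24a1 are highest at day 28.

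The type V chains, which are built into type I fibrils and limit their width, were present at lower levels. Col5a1 ranged from 0.628 to 5.10 FPKM, Col5a2 from 0.714 to 5.35 FPKM and Col5a3 from 0.605 to 4.87 FPKM. All 3 were highest in day 14 replicate 1, and the lowest library was from day 28 for Col5a1 and Col5a2 and from day 5 for Col5a3. Their log2 fold changes from day 5 to day 14 were 1.54 (SE 0.51, adjusted p = 0.106), 1.38 (SE 0.40, adjusted p = 0.0785) and 1.45 (SE 0.47, adjusted p = 0.103), and none passed. The value of Col5a2 from day 14 to day 28 was -2.23 (SE 0.47, adjusted p = 0.103).

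The collagens that sit on the surface of fibrils moved in different directions. Col14a1, which joins fibrils to neighbouring matrix, was at 1.45, 0.980 and 1.03 FPKM at day 5, at 2.89 and 2.32 FPKM at day 14, and at 1.82 and 3.39 FPKM at day 28. The libraries of day 5 lay below all those of the later days, and the 2 libraries of day 14 were within 1.24-fold of each other. It rose by day 14 (log2 fold change 1.18, SE 0.28, adjusted p = 0.0459) and by day 28 (1.17, SE 0.28, adjusted p = 0.0225). The call at day 14 was kept in 2 of 7 fits with a library left out, without day 28 replicate 1 and without day 28 replicate 2, and the call at day 28 was lost without day 5 replicate 2, day 5 replicate 3 or day 28 replicate 2. Col9a3, a chain of a cartilage collagen, was at 1.27, 0.643 and 1.29 FPKM at day 5, at 0.543 and 0.387 FPKM at day 14, and at 0.293 and 0.353 FPKM at day 28, so that every later library was lower than every library of day 5. By day 28 it fell by 1.72 log2 units (SE 0.46, adjusted p = 0.0361), on 18 to 82 fragments per library, and the call was lost without day 5 replicate 1, day 5 replicate 3 or either day 28 library. Col20a1 stayed between 0.865 and 1.76 FPKM, and Col12a1 between 0.201 and 0.718 FPKM. Col16a1 was at 0.0911 to 0.365 FPKM in 6 libraries and at 1.15 FPKM in day 14 replicate 1.

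Among the chains of type VI collagen, which forms the filaments around cells, Col6a1 rose. It was at 1.40, 0.296 and 0.399 FPKM in the day 5 libraries, at 5.999 and 2.34 FPKM at day 14, and at 1.64 and 2.19 FPKM at day 28. The levels of day 5 lay below all others, and day 14 replicate 1 was again the highest. Its log2 fold change by day 14 reached 2.55 (SE 0.59, adjusted p = 0.0431), and this call was kept without day 5 replicate 1 or day 14 replicate 2 and lost without any of the 5 others. Col6a2 was at 2.16, 0.206 and 0.517 FPKM, then 6.59 and 2.197 FPKM, then 0.982 and 2.08 FPKM, and did not pass (log2 fold change 2.17, SE 0.77, adjusted p = 0.128). Col6a3 ranged from 0.383 to 3.01 FPKM and did not pass either (1.49, SE 0.52, adjusted p = 0.124). Day 5 replicate 1 stood above the other day 5 libraries in all 3 chains.

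The chains of type IV collagen, the network of basement membranes, passed no test. Col4a1 was at 1.10 to 3.73 FPKM and Col4a2 at 0.999 to 2.52 FPKM, with the time points overlapping. The 2 genes lie head to head on chromosome 8 and overlap at their starts, Col4a1 on the minus strand from 11312826 and Col4a2 on the plus strand from 11312805, and their FPKM ratio stayed at 1.08 to 1.48 over the 7 libraries. The sources used here do not say whether strand was used in counting, and fragments of the shared first bases could then belong to either. Col15a1 was at 1.11, 0.323 and 0.134 FPKM at day 5 and at 1.38 to 1.76 FPKM in the 4 later libraries, and its log2 fold changes of 1.67 at day 14 (SE 0.61, adjusted p = 0.139) and 1.53 at day 28 (SE 0.61, adjusted p = 0.12) did not pass.

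Col18a1, a basement membrane collagen whose end can be cut off as endostatin, went the other way. It was at 2.71, 2.26 and 2.46 FPKM at day 5, at 3.07 and 1.72 FPKM at day 14, and at 1.07 and 0.783 FPKM at day 28. Both libraries of day 28 were below all others. By day 28 it fell by 1.39 log2 units relative to day 5 (SE 0.27, adjusted p = 0.0116), and the call was lost without either library of day 28. Of 13 endothelial markers 11 were tested, and over the same interval 2 fell and 2 rose (7.51% and 7.74% of all genes). Kdr fell by 3.02 (SE 0.42, adjusted p = 0.0029) and Pecam1, whose product was used to remove endothelial cells, fell by 1.797 (SE 0.37, adjusted p = 0.0145). Tek rose by 4.63 (SE 1.06, adjusted p = 0.0208), on 0 to 46 fragments, and Vwf rose by 2.07 (SE 0.47, adjusted p = 0.021). With a library left out, these calls were kept in 7 of 7 fits for Kdr, 6 for Pecam1, 4 for Tek and 3 for Vwf. The summed level of the 13 markers was 18.5 to 30.8 FPKM in the day 5 libraries, 17.1 and 12.7 FPKM at day 14, and 14.0 and 9.15 FPKM at day 28. The part of these cells in the fall of Col18a1 was not tested.

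Proteins that bind or organize collagen fibrils were also highest in day 14 replicate 1. Sparc, a collagen-binding glycoprotein, was at 14.5, 7.41 and 7.87 FPKM at day 5, at 42.8 and 17.1 FPKM at day 14, and at 12.6 and 14.4 FPKM at day 28. Biglycan (Bgn), a small proteoglycan of collagen fibrils, was at 5.80, 3.84 and 2.79 FPKM, then 17.4 and 7.002 FPKM, then 5.57 and 5.13 FPKM. Decorin (Dcn), its close relative, was at 3.97, 2.53 and 2.17 FPKM, then 11.9 and 4.71 FPKM, then 2.49 and 2.72 FPKM. In all 3 genes the day 14 libraries lay above those of day 5, by a narrow margin in replicate 2, and the libraries of day 28 lay within the range of day 5. Sparc rose by day 14 (log2 fold change 1.59, SE 0.37, adjusted p = 0.0447) and so did Bgn (1.56, SE 0.37, adjusted p = 0.048). Dcn ended just outside the threshold (1.55, SE 0.38, adjusted p = 0.0502). Each of these 3 genes was called in 1 of the 7 fits with a library left out, the one without day 14 replicate 2. Lumican (Lum), of the same proteoglycan family, had 0 fragments in day 5 replicates 2 and 3, 32 in day 5 replicate 1, 89 and 35 at day 14, and 35 and 8 at day 28, which is at most 2.62 FPKM.

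Periostin (Postn), a matrix protein of healing tissue, was the member whose rise by day 14 was called most often. It was at 1.90, 0.895 and 0.514 FPKM at day 5, at 9.54 and 4.96 FPKM at day 14, and at 4.54 and 4.22 FPKM at day 28. No library of day 5 reached the lowest of the later ones. Its log2 fold change was 2.71 at day 14 (SE 0.44, adjusted p = 0.0184) and 1.99 at day 28 (SE 0.44, adjusted p = 0.0185). The first call was kept in 5 of 7 fits that left out a library and lost without day 5 replicate 2 or day 5 replicate 3. The second was kept in 4 and lost without day 5 replicate 2 or either day 28 library. Dermatopontin (Dpt), another matrix protein of connective tissue, had 15, 0 and 3 fragments at day 5, 63 and 34 at day 14, and 51 and 17 at day 28. The log2 fold change of 3.24 at day 14 (SE 0.91, adjusted p = 0.0717) did not pass and rests on day 5 libraries at or near the floor. Fbln1, the gene of fibulin-1, stayed at 0.262 to 0.770 FPKM.

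Fn1 and Col24a1 had the opposite order within day 14 and were highest at day 28. Fibronectin (Fn1; chromosome 1, 71585520 to 71653200, minus strand) was at 555, 867 and 713 FPKM at day 5, at 753 and 1742 FPKM at day 14, and at 1849 and 1825 FPKM at day 28. Day 14 replicate 1 lay within the range of day 5, and day 14 replicate 2 was near the level of day 28. Fn1 rose by day 28, by 1.38 log2 units (SE 0.31, adjusted p = 0.0185), a call kept in 3 of 7 fits with a library left out, those without day 5 replicate 2, day 14 replicate 1 or day 14 replicate 2. The value at day 14 was 0.82 (SE 0.31, adjusted p = 0.145). Without day 14 replicate 1 it was 1.30 and passed, and without day 14 replicate 2 it was 0.08. Since Fn1 held most of the summed FPKM of the members, their sum followed it, with 680 to 929 FPKM in the day 5 libraries, 1100.2 and 1882 FPKM at day 14, and 1928 and 1931 FPKM at day 28. Without Fn1 the sum was 54.6 to 125 FPKM, then 348 and 139 FPKM, then 79.4 and 106 FPKM. The level of Col1a1 came to 10.9% of that of Fn1 in day 14 replicate 1 and to 0.563% to 4.73% in the other libraries.

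Col24a1 (chromosome 3, 145292472 to 145552011, plus strand), a minor fibrillar collagen known from developing bone, had 2, 1 and 7 fragments at day 5, 7 and 113 at day 14, and 433 and 273 at day 28. In FPKM this was 0.0118, 0.0070 and 0.0460, then 0.0557 and 0.726, then 1.61 and 2.04. The day 28 libraries were above all others, and the 2 libraries of day 14 differed more than those of any other member with a mean of at least 1 FPKM, with replicate 1 at 0.0768 times replicate 2. Relative to day 5 it rose by 4.17 log2 units by day 14 (SE 0.97, adjusted p = 0.0451), called in 1 of 7 fits with a library left out, that without day 14 replicate 1. By day 28 the rise was 6.37 log2 units (SE 0.92, adjusted p = 0.00347), called in all 7. Day 5 replicates 1 and 2 were at the floor, so the size of both fold changes rests on few fragments.

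The surface markers of fibroblasts were low. Pdgfra, the receptor for platelet-derived growth factor on mesenchymal cells, was at 0.163 to 0.780 FPKM, on 33 to 90 fragments. It was highest in day 14 replicate 1, and its log2 fold change at day 14 was 1.003 (SE 0.39, adjusted p = 0.159). Thy1, whose product was used to remove fibroblasts, was at 2.06, 0.855 and 1.04 FPKM at day 5, at 1.22 and 0.929 FPKM at day 14, and at 0.624 and 0.880 FPKM at day 28. Its highest library was day 5 replicate 1, not day 14 replicate 1, and it passed no test (log2 fold change -0.29 at day 14, SE 0.48, adjusted p = 0.752).

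The libraries of day 14 were compared gene by gene, with 1 library on each side and hence no test. Day 14 replicate 1 was at least 2-fold above replicate 2 in 18 of 37 tested members, compared with 6.81% of all genes. Over the 25 members with a mean of at least 1 FPKM, the median ratio of replicate 1 to replicate 2 was 2.28, with a range of 0.0768 for Col24a1 to 3.15 for Lum, and over all genes tested it was 1.004. Of these 25 members, 22 were higher in replicate 1, and Fn1, Col24a1 and Col20a1 were lower. Day 14 replicate 1 was the highest of all 7 libraries in 26 of 37 tested members and in 13.6% of all genes. Within day 5, replicate 1 was the highest library in 28 of 37 tested members and in 36.4% of all genes. When both of these libraries were left out, an alternative added after the values were seen, 15 of 39 members were called at day 14 against day 5 (8.98% of all genes) and 13 of 39 at day 28 against day 5 (14.2% of all genes). Col1a1 (log2 fold change 1.28, adjusted p = 0.0411) and Col3a1 (1.56, adjusted p = 0.005) were then among those that rose by day 14, and Fn1 as well (1.15, adjusted p = 0.00208), with day 14 represented by a single library that was assumed to vary like the others.

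**Figure D3:**
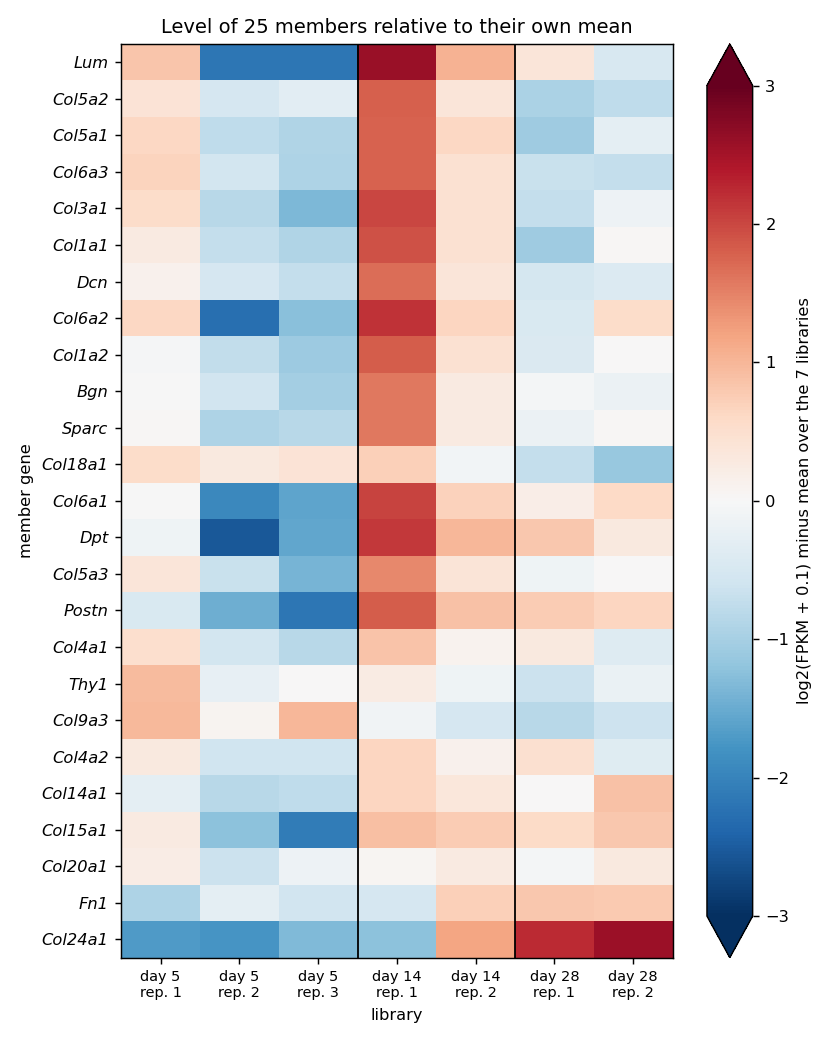
Level of the 25 members with a mean of at least 1 FPKM in each of the 7 libraries, as log2(FPKM + 0.1) minus the mean of the gene over all libraries, red for higher and blue for lower. Day 14 replicate 1 holds the highest value of 19 of the 25 members. Fn1 and Col24a1 at the bottom run from low in day 14 replicate 1 to high at day 28.

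Genes that act on collagen after its synthesis were read out from lists of their own. Of 34 genes for collagen modification, secretion and crosslinking in the table, 30 were tested. By day 14, 2 rose and 1 fell (2.84% and 1.94% of all genes), with a median log2 fold change of 0.27. The largest levels were those of P4hb, a subunit of prolyl hydroxylase with wider use in protein folding, at 316 to 418 FPKM, Ppib at 106 to 140 FPKM and Plod3 at 63.0 to 80.0 FPKM. Adamts2, which trims the ends of procollagens, was also highest in day 14 replicate 1, with 0.452, 0.370 and 0.322 FPKM at day 5, 1.70 and 0.956 FPKM at day 14, and 0.321 and 0.484 FPKM at day 28. It rose by day 14 (log2 fold change 1.796, SE 0.39, adjusted p = 0.0366), called in 2 of 7 fits with a library left out. Leprel1, a prolyl 3-hydroxylase, rose as well (4.57, SE 1.03, adjusted p = 0.0415) on 0 to 59 fragments, called in 1 of 7. P4ha1, the catalytic subunit of prolyl hydroxylase, fell by 0.47 (SE 0.11, adjusted p = 0.0485) by day 14, called in 0 of 7, and by 0.52 by day 28 (SE 0.11, adjusted p = 0.0164), called in 3 of 7. By day 28 Plod1, a lysyl hydroxylase, had also fallen, by 0.97 (SE 0.18, adjusted p = 0.00896), and Glt25d1, which adds galactose to collagen, had risen by 0.64 (SE 0.12, adjusted p = 0.00962). The calls of Plod1 and Glt25d1 were kept in 6 and 5 of 7 such fits.

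Among 15 receptors and uptake genes for collagen, 11 were tested. Ctsk, the collagen-degrading proteinase cathepsin K, was at 62.8, 50.9 and 55.0 FPKM at day 5, at 160 and 341 FPKM at day 14, and at 456 and 390 FPKM at day 28. The 3 days did not overlap. It rose by 2.17 by day 14 (SE 0.27, adjusted p = 0.00926) and by 2.93 by day 28 (SE 0.27, adjusted p = 0.000706), and both calls were kept in all 7 fits with a library left out. Unlike Col1a1, Ctsk was lower in day 14 replicate 1 than in replicate 2. Itga1, a collagen-binding integrin, fell by 0.96 by day 14 (SE 0.21, adjusted p = 0.0385), called in 0 of 7 such fits, and by 0.94 by day 28 (SE 0.21, adjusted p = 0.0183), called in 3 of 7. Mrc1, the macrophage mannose receptor, which also takes up collagen, fell by 0.73 by day 28 (SE 0.19, adjusted p = 0.0347), as did Cd44, a receptor for hyaluronan and collagen, by 0.49 (SE 0.13, adjusted p = 0.0344), each called in 2 of 7. Cd36 was at 256 to 689 FPKM, with a log2 fold change of 0.88 by day 28 (SE 0.26, adjusted p = 0.0512).

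Of 39 other matrix genes, 38 were tested. Over all genes, 2.84% rose and 1.94% fell by day 14, and 7.74% rose and 7.51% fell by day 28. By day 14, 0 rose and 2 fell, Vcan (fell by 1.55, SE 0.17, adjusted p = 0.00699) and Lamc1 (fell by 0.50, SE 0.11, adjusted p = 0.0374), which encode versican and a laminin chain, and the Vcan call was kept in all 7 fits with a library left out and that of Lamc1 in 1. The median log2 fold change of the list was 0.83, and 32 of 38 genes had a positive value. Over all genes tested the median was 0.03, and 6803 of 12858 were positive. By day 28, 4 rose and 4 fell. Spp1, the gene of osteopontin, rose by 1.82 (SE 0.26, adjusted p = 0.00345) from 780 to 1225 FPKM at day 5 to 3733 and 3095 FPKM, and Tgfbi, Fmod and Thbs4 rose too. Vcan, Lamc1, Ecm1 and Thbs1 fell, and for Thbs1, the gene of thrombospondin-1, by 1.73 (SE 0.45, adjusted p = 0.0331). With a library left out, the day 28 calls of Spp1, Vcan and Lamc1 were kept in all 7 fits. They were kept in 4 of 7 for Thbs4 and Ecm1, 3 for Tgfbi, and 2 for Fmod and Thbs1. The rise of Tgfbi (0.44, SE 0.13, adjusted p = 0.0459) was no longer called with the other library scalings.

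The levels of marker lists for cells that a sort from nerve could carry over are given beside these results. Of the 12 macrophage markers, 1 fell by day 14 (Cd14) and 3 by day 28 (Cd14, Emr1 and Fcgr1), while 0 rose. Over all genes 1.94% and 7.51% fell. With 1 library left out, the log2 fold changes by day 28 were -0.94 to -0.61, -1.08 to -0.90 and -1.83 to -1.64. Of the 27 fibroblast markers, 11 were at 0 in at least 1 library, and Tcf21 in all. Of these markers 23 were tested. Ccdc80, Mmp2 and Olfml3 rose by day 14, called in 5, 1 and 1 of 7 fits with a library left out, and 0 fell. Over all genes 2.84% rose and 1.94% fell by day 14. Mmp2, a gelatinase of mesenchymal cells, was at 1.33, 0.838 and 0.546 FPKM, then 6.46 and 2.38 FPKM, then 0.892 and 1.66 FPKM, and was highest in day 14 replicate 1. Olfml3, the most abundant gene of the list, was at 3.33 to 4.05 FPKM in the day 5 libraries, 5.87 and 8.88 FPKM at day 14, and 13.4 and 11.8 FPKM at day 28, so that it was highest at day 28. Without Olfml3, Htra3 and Pi16, a trim made after the values were seen, the sum of the other 24 markers was 7.51 to 12.1 FPKM, then 37.7 and 17.7 FPKM, then 10.7 and 14.7 FPKM. The lower values at day 28 come with the trim, since the full list stayed at 31.0 and 33.2 FPKM there, against 15.5 to 21.5 FPKM at day 5. Day 14 replicate 1 was the highest library in 16 of the 27 markers, compared with 13.6% of all genes tested. By day 28 Ccdc80 and Olfml3 had risen and Prrx1 had fallen (7.74% and 7.51% of all genes). These 3 calls were kept in 6, 7 and 3 of 7 fits with a library left out. The defining markers of Schwann cells reported here, Sox10, S100b, Ngfr, Cdh19 and Gfap, were at 0.190 FPKM or less in each library. Most of the sum of 13 Schwann cell markers, 166 to 307 FPKM, came from Pmp22 (133 to 283 FPKM), which other cells also express. Of these 13 markers 7 were tested, and 1 rose and 2 fell by day 28 (7.74% and 7.51% of all genes). Cspg4, a proteoglycan of pericytes, was at 0.371, 0.309 and 0.250 FPKM at day 5, at 1.53 and 1.19 FPKM at day 14, and at 1.75 and 1.97 FPKM at day 28. It rose by day 14 (log2 fold change 2.13, SE 0.22, adjusted p = 0.00554) and by day 28 (2.59, SE 0.22, adjusted p = 0.000541), called in all 7 fits with a library left out. The 11 markers of pericytes and smooth muscle, Cspg4 included, summed to 4.64 to 8.21 FPKM and the 6 perineurial markers to 0.503 to 1.60 FPKM, with Lypd2 at 0 throughout. The part of these cells in the levels of the members was not tested, and neither was that of the digestion or of RNA set free from broken cells.

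**Figure D4:**
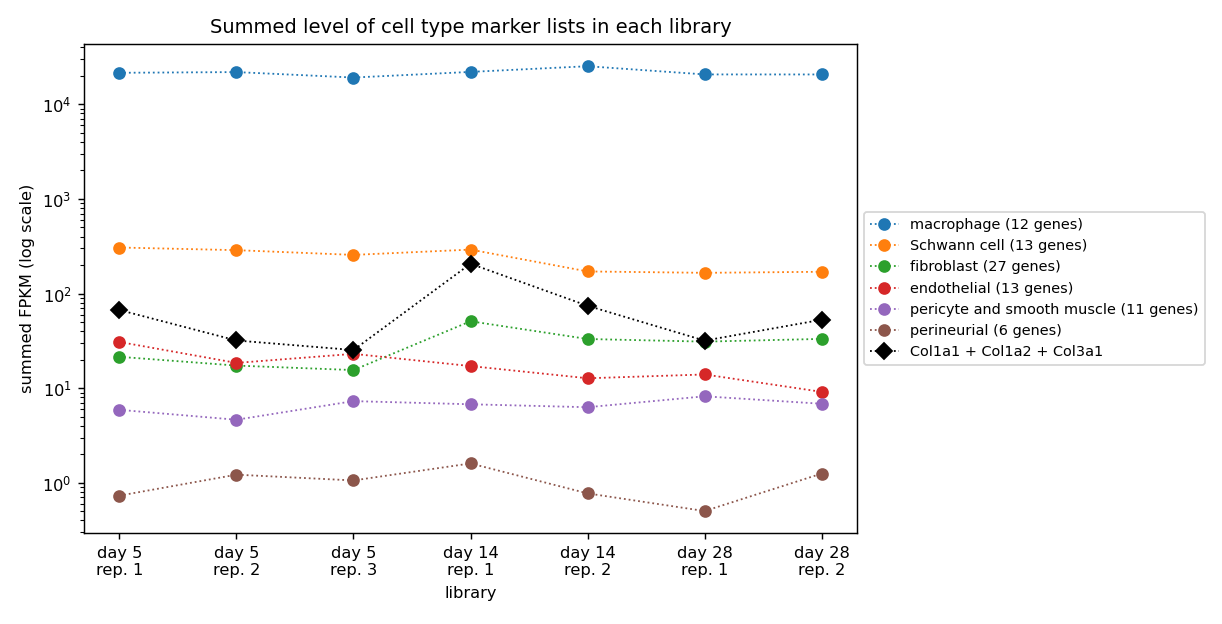
Summed FPKM of 6 marker lists and of Col1a1, Col1a2 and Col3a1 in each library, on a log scale, with dotted lines only to guide the eye. The sum of the macrophage markers stays between 19178 and 25254 FPKM, although single markers fell. The 3 collagens reach 207 FPKM and the fibroblast markers 51.0 FPKM in day 14 replicate 1, their highest library.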

How the data were processed

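PolyA+ RNA of sorted macrophages was sequenced as single-end reads. Per the labels, the authors used cutadapt 1.8, TopHat2 2.0.13 and Cuffdiff 2.2.1 with UCSC mm10. The authors deposited, for each gene and library, the expected count (estimated fragments), the scaled signal (those fragments times Cuffdiff's factor for the library) and the FPKM. How reads of paralogs were shared, and strand, is not given in the sources used here, so chains with near-identical or overlapping copies are uncertain. Estimated fragments were rounded (0.947% were not whole, at a tolerance of 1e-06) and compared by the quasi-likelihood test of edgeR 4.0.16 (R 4.3.3). TMM scaling, an expression filter by time point (12858 genes kept), time point as the only factor, all 7 libraries in 1 fit with 4 residual degrees of freedom and Benjamini-Hochberg adjustment over all tested genes were used. SEs derive from the F statistic and are approximate. DESeq2 1.42.0 and limma 3.58.1 on log2(FPKM + 1) and log2(FPKM + 0.1) were alternatives, besides other scalings (RLE, Cuffdiff's own), no filter, fits on the compared days, a replicate block, an adjusted p under 0.01, and leaving out each library. The tests were tried on simulated counts. Python 3.11.15 and matplotlib 3.10.9 drew the plots.

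Members with a mean of at least 5 FPKM at a time point are given in every library, those of at least 1 FPKM and called members by values or range, and from each gene list the called and the 4 most abundant genes were eligible. The members, gene lists and marker lists were chosen with earlier results of these data known. Coding exons and gene positions are from GENCODE vM21 on GRCm38 and promoters from RefSeq. In the lists, 6 newer symbols of collagen processing genes, C1s1, Adgre1 and Spi1 had no match in the table by name. Some Schwann cell markers are not reported here, and the list was summed without them.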

Additional observations from a re-analysis of the deposited data

How the results depend on the processing

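With 2 libraries at days 14 and 28, a single library could set a count, and fits without one of them assume that the lone library varies like the others. Fold changes of members were followed where the unadjusted p of the main edgeR fit was under 0.05, and those of list genes where called. This choice favours a steady direction. Outside it a direction could reverse, as for Col1a1 at day 28 vs day 5, at -0.70 to 0.40 with 1 library left out. Over the 88 fold changes of members and list genes that were followed, 1407 alternative values were computed. None changed direction, 1071 stayed on the same side of the threshold, 270 lost and 66 gained a call. Only called fold changes could lose a call, and the 1071 include uncalled ones that stayed uncalled. The 1071 therefore do not measure how firm the calls were. Other scalings (RLE, Cuffdiff's own) moved the median log2 fold change of all genes by at most 0.016. Scarce members are limited by depth, since 17 of 54 never exceeded 11 fragments. The causes of the shifts below were not tested.

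For day 14 vs day 5, the 7 called members became 11 with DESeq2, 20 with no expression filter, 1 with limma at either pseudocount, 2 in a fit on the compared days and 0 at an adjusted p under 0.01. All called genes, 614, became 1302, 1429, 252 and 277 (pseudocount 1 and 0.1), 315 and 24. For day 28 vs day 14, called members became 3 with DESeq2 and 11 with no filter, from 0, and the 8 called genes became 324, 390, 0 and 0 with limma, 0 on the compared days and 0 at an adjusted p under 0.01. For day 28 vs day 5, 1 member and 597 genes of 1960 passed at an adjusted p under 0.01. For day 14 against the mean of the other days, members became 5 with DESeq2 and 14 with no filter, from 0, and the 2 called genes became 183, 229, 0 and 0 with limma, and 0 at an adjusted p under 0.01. Leaving out both day 5 replicate 1 and day 14 replicate 1, a choice made after seeing the data, gave 15 members and 1191 genes for day 14 vs day 5, 33 genes for day 28 vs day 14, 13 members for day 28 vs day 5, and 6 members and 201 genes for day 14 against the other days.

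Leaving out 1 library at a time gave 0 to 10 members and 52 to 1728 genes for day 14 vs day 5, 0 to 13 and 0 to 629 for day 28 vs day 14, 1 to 7 and 452 to 2746 for day 28 vs day 5, and 0 to 13 and 0 to 273 for day 14 against the other days. The summed FPKM of the members was 1.88-fold at day 14 and 2.44-fold at day 28 relative to day 5, 1.39 to 2.38 and 2.27 to 2.67 with 1 library left out, and 3.03 and 1.13 for members other than Fn1 and Sparc.

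Replicate numbers were not treated as pairs in the main fit. Deviations from the group means of same-numbered libraries correlated at 0.17 and 0.04 between days 5 and 14, over 7613 genes. The value was -0.05 between days 14 and 28, and the values were 0.08 and 0.02 between days 5 and 28. A correlation over all these genes does not settle whether a smaller set, such as the members, shared a batch by replicate number. That was not tested. With the replicate number as a block, 0 members and 6 genes were called for day 14 vs day 5, 0 genes for day 28 vs day 14, 735 genes for day 28 vs day 5 and 0 genes for day 14 against the other days. The 7 members of day 14 kept their direction (adjusted p = 0.0589 to 0.169), and 4 of the 6 of day 28 stayed called.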
